A study of Mus musculus with 18 samples.

Results

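The comparison described here is between parental NIH3T3 cells electroporated with bovine serum albumin (BSA) and the same cells electroporated with phosphate-buffered saline (PBS). NIH3T3 is an established mouse fibroblast line derived from embryos. By their source labels, 6 of the 18 libraries of the series belong to it, 3 after BSA and 3 after PBS. In both groups the cells carried no added transgene and were kept in medium with calf serum. Both were pulsed with the same electroporation settings (1400 V, 20 ms, 2 pulses) and lysed for poly(A)-selected RNA sequencing after 16 h. The BSA reactions held 7.5 µg of the protein, and the PBS reactions held buffer in its place. The wider study delivered antibody (IgG), BSA or PBS into this line and into a line that expresses mCherry-mTRIM21, a red fluorescent fusion of the antibody receptor and ubiquitin ligase TRIM21. Each group holds 3 libraries, whose titles carry the numbers 10, 11 and 14. The labels do not say whether the libraries of a group came from separate cultures, so the p-values below measure the spread between these libraries, which may be technical. No library of cells left without electroporation was analysed here, so the effect of the pulse itself is part of both groups.

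Albumin is the main protein of blood plasma. Cells usually meet it from outside: they bind it at the surface, take it up in clathrin-coated or caveolar vesicles, and either recycle it through the neonatal Fc receptor or break it down in lysosomes. Electroporation opens the plasma membrane for a short time, so that protein in the cuvette reaches the cytosol directly, and the cell reseals the membrane with annexins and ESCRT proteins. In such experiments BSA serves as the control for a delivered protein. The question the comparison addresses is how the transcripts of unmodified fibroblasts differ when an inert protein is delivered with the pulse.

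The 6 libraries held 20177507 to 26521824 reads assigned to genes. Levels are given as CPM, the counts per 1000000 gene reads after scaling between libraries. All 14 fibroblast markers were measured, and their summed level was 34000 to 38100 CPM after PBS and 30500 to 40700 CPM after BSA. Markers of the other cell types were low: the epithelial sum was at most 1.92 CPM, with Epcam, Krt5 and Krt18 at 0, and the endothelial sum at most 1.38 CPM, with Kdr at 0. The haematopoietic sum of 5.21 to 7.37 CPM came mostly from Cd68, while Cd3e was at 0. The neural sum of 6.18 to 13.6 CPM came mostly from Tubb3, with Sox10 and Rbfox3 at 0. Adipocyte markers summed to at most 0.979 CPM, with Plin1 at 0, skeletal muscle markers to at most 0.081 CPM, with Myod1, Myog and Ckm at 0, and hepatocyte markers to at most 0.162 CPM, with Ttr at 0. Of 16 such library measures, none differed between the groups beyond a two-sided exact permutation test (3 against 3 libraries; smallest p 0.1, the smallest this design allows; Benjamini-Hochberg adjusted values from 0.667). The PBS library numbered 14 stood apart from the rest. It had 18.8% of its reads outside genes, against 13.1% to 15.9% in the other 5. The root mean square difference in log2 CPM between libraries, over 11276 genes, was 0.297 to 0.414 within the PBS group, 0.26 to 0.295 within the BSA group and 0.228 to 0.429 between the groups. Several list medians below are also given without this or another library.

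No gene passed the test between BSA and PBS. Of 12140 genes tested with edgeR's quasi-likelihood test, 0 (0%) had a Benjamini-Hochberg adjusted p under 0.05, and the smallest adjusted p was 0.982. The same count was 0 with limma-voom and with the DESeq2 Wald test. Without adjustment, 302 genes (2.49%) had a p under 0.05 in edgeR, of which 98 (0.807%) were higher after BSA and 204 (1.68%) lower. The corresponding counts were 295 with limma-voom and 286 with DESeq2. Without the PBS library numbered 14 the edgeR count was 80, and without the PBS library numbered 11 it was 1178. In 596 genes (4.91%) the 3 libraries of each group did not overlap, with BSA above PBS in 269 (2.22%) and below it in 327 (2.69%).

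A missed threshold does not show that the groups were alike, so the size of the differences that the data allow was read from the 95% interval of each fold change. The interval lay within 2-fold in either direction for 11312 genes (93.2%) and within 1.5-fold for 9027 (74.4%). The middle 95% of log2 fold changes ran from -0.40 to 0.36, around a median of -0.0041, and the median standard error (SE) was 0.143. An estimated difference of 2-fold or more was seen in 24 genes (0.198%), and one of 1.5-fold or more in 193 (1.59%). Precision followed the level of the gene. Among the 864 genes under 1 CPM, 34.6% had an interval within 2-fold. The share was 83% from 1 to 3 CPM, 96% from 3 to 10 CPM and 98.7% from 10 to 30 CPM. For weakly transcribed genes, among them several interferon-induced ones, differences beyond 2-fold were therefore within the intervals.

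The genes that handle albumin at the surface and in vesicles showed no shared direction. Of 24 listed members, 20 could be tested, and 10 of them were higher and 10 lower after BSA, with a median log2 fold change of -0.004, the same as over all tested genes (5953 of 12140 higher, median -0.004). Leaving out 1 of the 6 libraries gave medians from -0.018 (without the BSA library numbered 10) to 0.045 (without the BSA library numbered 11). None passed the test, and 19 of the 20 had an interval within 2-fold. The albumin gene itself, Alb, was at 0 CPM in 5 of the 6 libraries and at 0.0405 CPM in the PBS library numbered 11, where 3 counts in a library correspond to 0.113 to 0.144 CPM.

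Among the receptors, Fcgrt, the heavy chain of the neonatal Fc receptor that rescues albumin and IgG from lysosomes (chr7:45092990-45103851, GRCm38, minus strand), had the highest estimate. Its level was 50.2, 68.1 and 57.1 CPM in the PBS libraries numbered 10, 11 and 14, and 75.6, 48.2 and 86.1 CPM in the BSA libraries. The lowest of the 6 values was a BSA library, so the groups overlapped, and the log2 fold change was 0.26 (SE 0.276, interval -0.32 to 0.84). Sparc, a secreted matrix protein that binds albumin, was the most counted member, at 2300, 2780 and 2980 CPM after PBS and 2740, 2370 and 2770 CPM after BSA. For Lrp1, a large endocytic receptor, the PBS values were 1320, 1040 and 738 CPM and the BSA values 999, 898 and 1110 CPM. The PBS range of Lrp1 enclosed all 3 BSA values. Calr, calreticulin, a chaperone of the endoplasmic reticulum that is also listed as an albumin binder, had a log2 fold change of -0.01 (SE 0.118). The kidney albumin receptors were weakly transcribed, with Cubn between 3.95 and 5.25 CPM and Lrp2 between 0.383 and 0.81 CPM over the 6 libraries. The interval for Lrp2, -1.13 to 0.79, was the only one of the list to leave the 2-fold bounds.

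In the caveolar branch, the groups of Ptrf, the coat protein cavin-1, did not overlap. Groups were apart in 1 of the 20 tested albumin-handling genes, beside 4.91% of all tested genes. Ptrf stood at 1280, 1290 and 1300 CPM after PBS and at 1460, 1480 and 1480 CPM after BSA. The spread within each group was small beside the gap. The fit, which takes its estimate of spread from all groups and genes, gave a log2 fold change of 0.19 (SE 0.0976, unadjusted p 0.0705). Cav1, caveolin-1, the main caveolar membrane protein, was at 1720, 1760 and 2310 CPM after PBS and 1800, 1760 and 2030 CPM after BSA. Cav2, its partner, had a log2 fold change of -0.04 (SE 0.11). The caveolins thus gave estimates of the opposite sign to that of their coat protein, each within its error of 0.

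No gene of the clathrin branch passed the test, and its estimates took both signs. Cltc, the clathrin heavy chain, was at 617, 406 and 590 CPM after PBS and at 511, 513 and 524 CPM after BSA. Clta, a clathrin light chain, gave a log2 fold change of 0.12 (SE 0.0785). Ap2m1, an adaptor subunit that selects cargo, gave 0.07 (SE 0.0854). Dab2, an adaptor for receptors of the LDL receptor family, gave -0.13 (SE 0.108). Dnm2, the dynamin that pinches vesicles off, gave 0.01 (SE 0.0986). The sorting GTPases Rab5a, Rab7 and Rab11a, which mark early, late and recycling endosomes, had log2 fold changes of -0.10, -0.06 and 0.02. Ehd1, which acts in recycling, was at 0.17 (SE 0.123). Outside the clathrin branch, the list members Gnas and Hnrnpc were at 0.04 (SE 0.126) and 0.01 (SE 0.107).

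**Figure D1:**
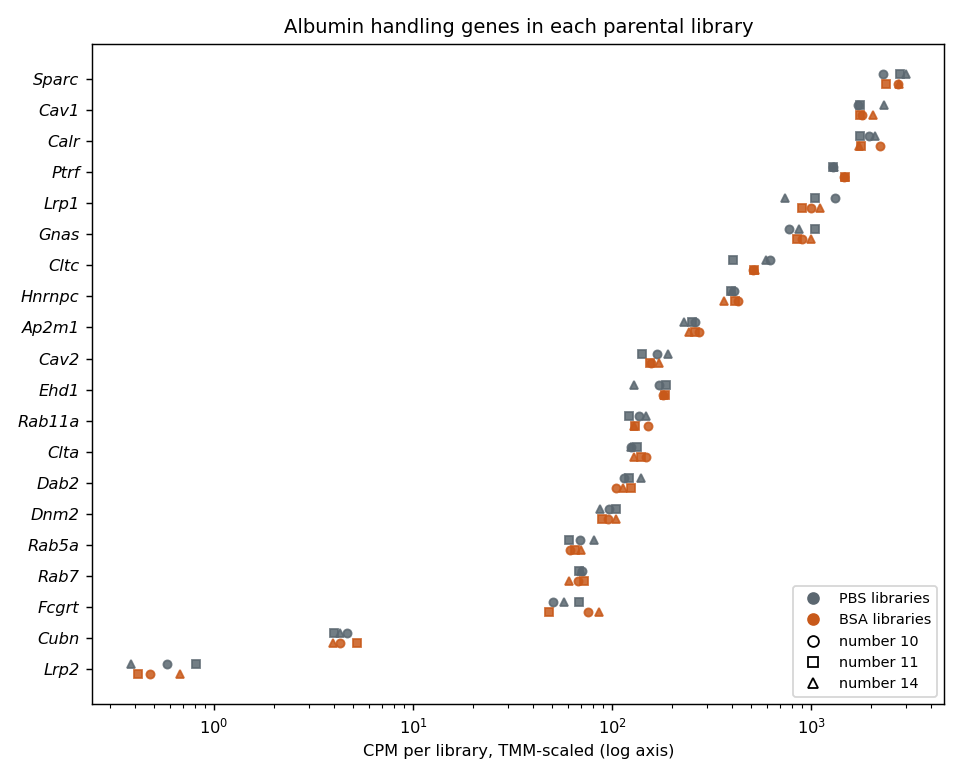
CPM of each tested albumin-handling gene (log axis) in the 6 libraries, with PBS and BSA in separate colours and the title number by marker shape. Levels run from under 1 CPM for Lrp2 to 2980 CPM for Sparc, and the Ptrf groups do not overlap.

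Genes for membrane repair and for the lysosome, the routes by which a cell reseals after the pulse and degrades foreign protein, leaned slightly above 0 without a gene passing the test. Of 27 tested membrane repair genes 18 were higher after BSA, with a median log2 fold change of 0.055, or 0.024 (15 of 27) without the BSA library numbered 10. Anxa2, an annexin that caps membrane wounds, was at 2940, 2910 and 2490 CPM after PBS and 3280, 2860 and 2480 CPM after BSA. Chmp1a, an ESCRT-III subunit, was at 95.2, 91.6 and 73 CPM after PBS and at 102, 95.7 and 105 CPM after BSA, a log2 fold change of 0.22 (interval -0.01 to 0.44). Its groups did not overlap, with BSA above PBS, as in 1 of the 27 genes and in 2.22% of all tested genes. Of 31 tested lysosomal genes 22 were higher, with a median of 0.056, or 0.026 (19 of 31) without the BSA library numbered 14. Ctsl, the protease cathepsin L, was the most counted of these, at 1490, 1380 and 1480 CPM after PBS and at 1820, 1370 and 1320 CPM after BSA. Lamp1, Gla and Npc2, 3 of the 31, had groups apart with BSA above PBS, beside 2.22% of all tested genes, and log2 fold changes of 0.08, 0.12 and 0.14. All tested genes of both lists had intervals within 2-fold.

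Ribosomal protein genes were the 1 list of the 20 in which every tested member had an estimate of the same sign. All 40 tested members were above 0 after BSA, with a median log2 fold change of 0.209 and a range from 0.04 to 0.71, and none had an unadjusted p under 0.05. Ribosomal proteins form the core of both ribosome subunits and are made in fixed proportion, so their transcripts tend to vary together between libraries, and the 40 genes are not 40 independent observations. They also have many near-identical processed pseudogenes, between which counting can split or drop reads, so the level of a single member is uncertain. Rplp0, the most counted member and a stalk protein of the large subunit, was at 3150, 2920 and 1550 CPM after PBS and 3580, 2920 and 3230 CPM after BSA. The PBS library numbered 14 was the lowest of the 6, and the log2 fold change was 0.35 (SE 0.224). Over the whole list, the mean log2 level relative to the PBS mean was 0.225, 0.188 and -0.413 in the PBS libraries and 0.461, 0.18 and 0.156 in the BSA libraries. The PBS libraries numbered 10 and 11 thus lay above the BSA libraries numbered 11 and 14. Without the PBS library numbered 14 the median was 0.073, with 38 of 40 genes above 0. Without the BSA library numbered 10 it was 0.119, with 33 of 40 above 0. Leaving out any other of the 6 libraries gave a higher median than the full set, with 40 of 40 above 0. These medians ran from 0.245 (without the BSA library numbered 11) to 0.322 (without the PBS library numbered 11). With both libraries numbered 14 left out, a fit chosen after seeing the data, the median was 0.127, with 37 of 40 above 0.

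In the respiratory chain and proteasome lists, too, the PBS library numbered 14 was the lowest and the BSA library numbered 10 the highest. Of 40 tested nuclear-encoded respiratory chain genes 36 were higher after BSA, with a median log2 fold change of 0.132. The median was 0.059 (33 of 40 higher) without the PBS library numbered 14 and 0.058 (28 of 40) without the BSA library numbered 10. Without any other of the libraries it was 0.163 (PBS library numbered 11) to 0.213 (BSA library numbered 14). With both libraries numbered 14 left out it was 0.118 (40 of 40). Atp5b, the catalytic beta subunit of ATP synthase, was at 1680, 1750 and 1500 CPM after PBS and 1820, 1830 and 1540 CPM after BSA. Ndufs7, a complex I subunit, stood at 42.3, 42.3 and 15.6 CPM after PBS and 48.9, 38.1 and 49.1 CPM after BSA. The PBS library numbered 14 was far below the other 5, and the log2 fold change was 0.44 (SE 0.305), equal to the highest of the list. Of 32 tested proteasome subunits 27 were higher, with a median of 0.099, or 0.059 (25 of 32) without the PBS library numbered 14 and 0.194 (31 of 32) without the BSA library numbered 14. With both left out the median was 0.113 (30 of 32). Psmb5, the catalytic subunit with chymotrypsin-like activity, was at 11, 12.7 and 5.56 CPM after PBS and 16.6, 13.1 and 12.3 CPM after BSA. Psmb3, a structural subunit of the same ring, was at 67.3, 65.3 and 47.1 CPM after PBS and 82.1, 76.2 and 64.5 CPM after BSA. Their log2 fold changes were 0.52 (SE 0.233, unadjusted p 0.0396) and 0.31 (SE 0.143, unadjusted p 0.0442), so 2 of 32 members had a p under 0.05 beside 2.49% of all genes. In both genes the PBS library numbered 14 was the lowest of the 6.

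Genes of the oxidative stress response and the cytosolic chaperones also leaned upward. Of 32 tested oxidative stress and metallothionein genes 26 were higher after BSA, with a median of 0.141. Fth1, the ferritin heavy chain that stores iron, was at 1510, 1510 and 1640 CPM after PBS and 1940, 1830 and 1650 CPM after BSA. The lowest BSA value exceeded the highest PBS value by a small margin, and the log2 fold change was 0.21 (SE 0.133). Mt1 and Mt2, the metallothioneins that bind zinc and copper, varied together across the libraries. Mt1 was at 204, 234 and 126 CPM after PBS and at 272, 165 and 265 CPM after BSA, and Mt2 at 232, 256 and 136 CPM after PBS and at 299, 180 and 307 CPM after BSA. Their estimates were 0.32 (SE 0.371) and 0.33 (SE 0.376), with intervals reaching past 2-fold upward. Hmox1, heme oxygenase, had 0.15 (SE 0.22). Of 31 tested chaperones 24 were higher, with a median of 0.07. Hspa8, the constitutive Hsp70, was at 934, 927 and 913 CPM after PBS and at 1080, 1080 and 836 CPM after BSA. Groups were apart in 4 of the 31 chaperone genes, all with BSA above PBS as in 2.22% of all tested genes: Hspb8, Cryab, Bag1 and Bag3, with log2 fold changes of 0.13, 0.32, 0.17 and 0.17. Without the PBS library numbered 14 the medians were 0.078 (26 of 32 higher) for oxidative stress and 0.035 (22 of 31) for the chaperones, whose median was 0.04 (19 of 31) without the BSA library numbered 11.

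**Figure D2:**
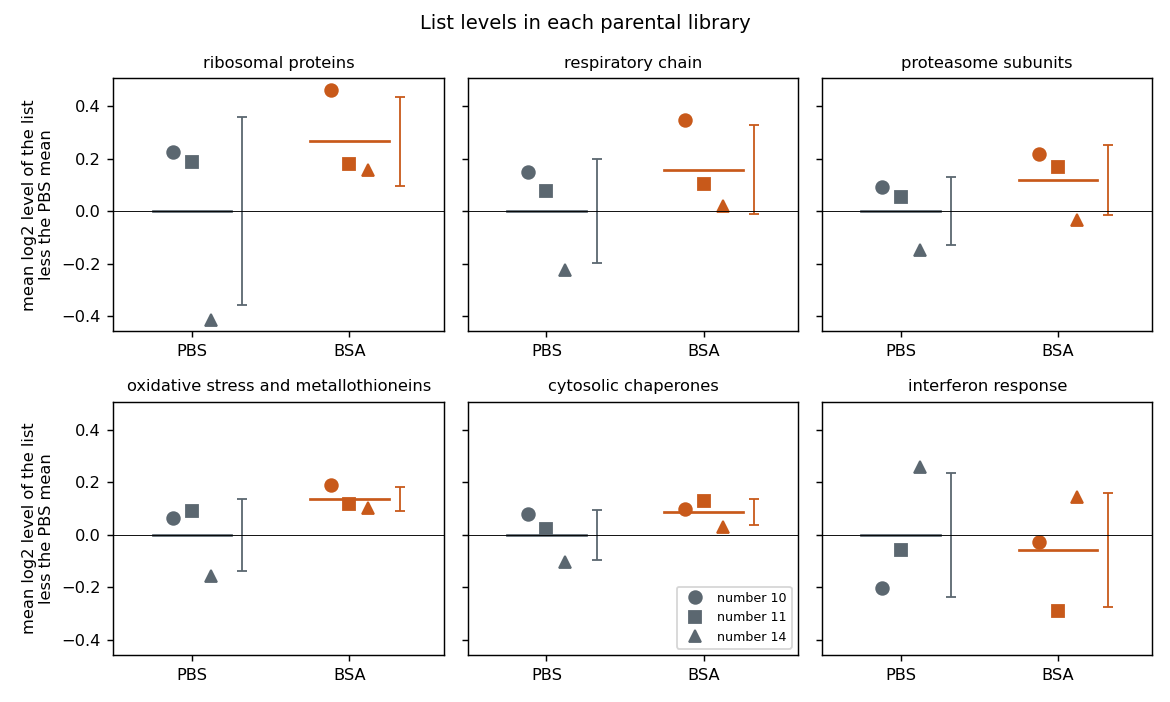
Mean log2 level of 6 gene lists in each of the 6 libraries, less the mean of the PBS libraries; marker shapes give the title numbers, horizontal lines the group means and bars 1 SD. In the ribosomal protein panel the PBS library numbered 14 lies at -0.413 while the other PBS libraries lie at 0.225 and 0.188.

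**Figure D3:**
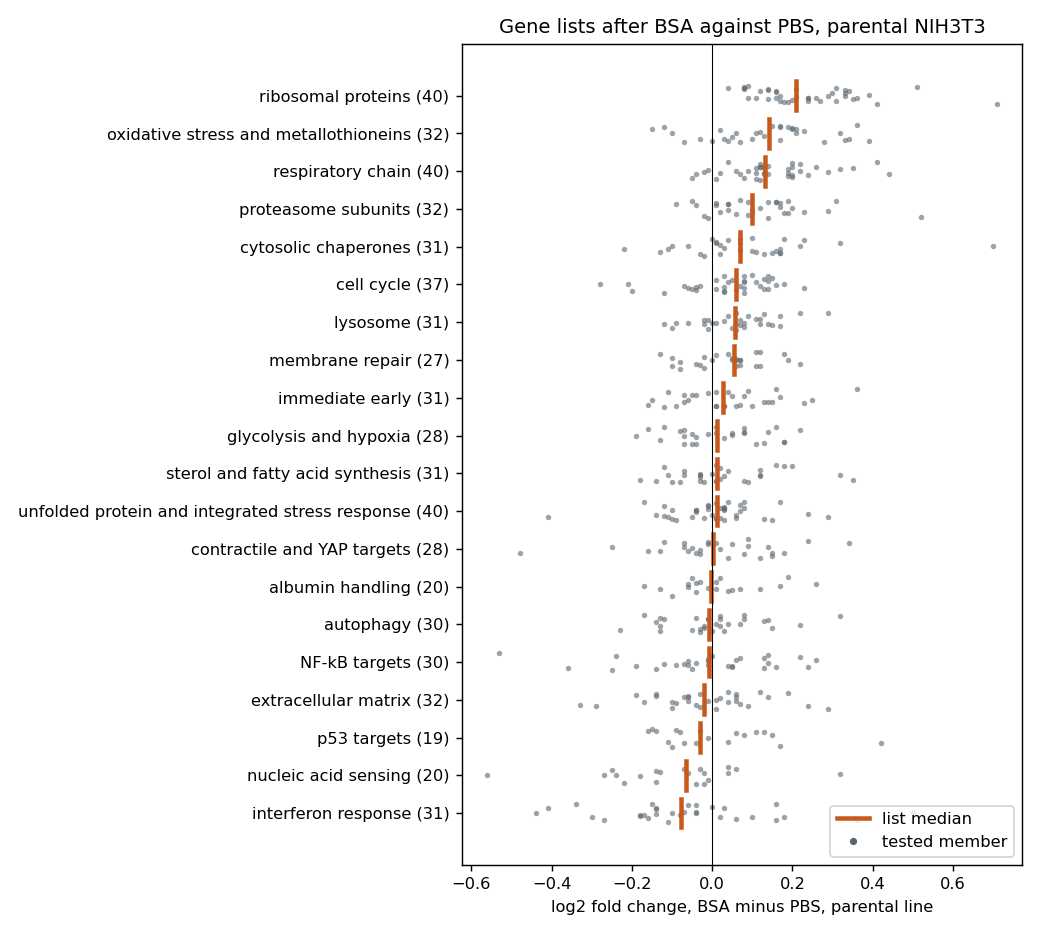
Log2 fold change, BSA against PBS, of the tested members of each list (points) with the list median. The ribosomal protein points all lie above 0, at 0.04 or more, and no point passed the adjusted test.

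The promoters of the 2 ribosomal protein genes with the highest and lowest estimate among members with a single promoter entry are shown because the estimates of this list all had the same sign. They are taken from RefSeq on GRCm38.p6, as the 250 bases before the start, 5′ to 3′ on the gene strand. Capitals mark CCGGAAG, the core that ETS-family factors bind, searched on both strands. It is held by 7.83% of all 27025 genes with promoters in that table, and by 16.1% of the 9132 tested genes among them. The table held promoters for only 28 of the 40 members, so a check of matches over the whole list is void.
Rps15, chr10:80292181-80292430, plus strand: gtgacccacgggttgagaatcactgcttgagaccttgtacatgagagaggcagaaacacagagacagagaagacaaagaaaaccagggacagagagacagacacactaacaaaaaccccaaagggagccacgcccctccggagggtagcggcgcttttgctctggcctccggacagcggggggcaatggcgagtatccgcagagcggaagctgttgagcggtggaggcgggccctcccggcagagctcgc
Rps6, chr4:86857368-86857617, minus strand: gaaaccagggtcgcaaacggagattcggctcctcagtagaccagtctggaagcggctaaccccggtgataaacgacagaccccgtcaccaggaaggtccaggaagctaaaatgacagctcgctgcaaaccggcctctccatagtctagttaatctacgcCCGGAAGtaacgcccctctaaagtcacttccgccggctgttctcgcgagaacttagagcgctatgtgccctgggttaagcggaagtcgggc
The Rps6 window holds 1 match, on the gene strand 91 bases before the start, and the Rps15 window holds none. Rps15 was at 1160, 1100 and 551 CPM after PBS and at 1410, 1090 and 1180 CPM after BSA, a log2 fold change of 0.39 (SE 0.235). Rps6 was at 1120, 1090 and 1040 CPM after PBS and at 1330, 1060 and 966 CPM after BSA, 0.04 (SE 0.134). The PBS library numbered 14 was low for Rps15 and near the others for Rps6.

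Interferon-induced genes, the transcripts that cells raise when they sense foreign nucleic acid, showed no gene past the test and a lean to lower values that turned when either of 2 libraries was left out. Of 44 listed genes 31 could be tested, and 9 were higher and 22 lower after BSA, with a median log2 fold change of -0.077. Without the PBS library numbered 14 the median was 0.061, with 20 of 31 higher, and without the BSA library numbered 11 it was 0.031, with 18 of 31 higher. The mean level of the list relative to the PBS mean was -0.201, -0.057 and 0.258 in the PBS libraries and -0.028, -0.288 and 0.145 in the BSA libraries, so that the libraries numbered 14 were the highest of both groups. Ifit1, a strongly interferon-induced gene, was at 1.47, 1.78 and 4.74 CPM after PBS and at 1.48, 1.47 and 2.82 CPM after BSA. Isg15, the ubiquitin-like modifier, was at 2.89, 5.14 and 4.36 CPM after PBS and at 3.84, 3.27 and 4.74 CPM after BSA. Irf7, the factor that amplifies the response, was at 0.979, 1.98 and 1.34 CPM after PBS and at 1.26, 1.11 and 1.92 CPM after BSA, a log2 fold change of 0.00 (SE 0.375). These levels were low in every library, and 24 of the 31 genes had an interval within 2-fold. A better counted member was B2m, the light chain of MHC class I, at -0.04 (SE 0.111). Trim21, itself an interferon-induced gene, was at 6.72, 8.1 and 9.73 CPM after PBS and 8.41, 6.54 and 8.39 CPM after BSA.

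Sensors of nucleic acid and targets of NF-κB showed similarly small differences. Of 20 tested sensing genes 4 were higher and 16 lower, with a median of -0.066, or -0.118 without the PBS library numbered 10. Ifi204, a DNA-binding protein, was the most counted, at 86.5, 78.4 and 103 CPM after PBS and 91.6, 75 and 77.1 CPM after BSA. Groups were apart in 1 of the 20 sensing genes, beside 4.91% of all tested genes. This was Trim25, the ubiquitin ligase that acts with the RNA sensor RIG-I. It was at 84.8, 84 and 89.5 CPM after PBS and 72.8, 78.1 and 83.7 CPM after BSA. Its log2 fold change of -0.14 had an unadjusted p of 0.0865. Of 30 tested NF-κB targets 14 were higher and 16 lower, with a median of -0.008. Ccl2, the monocyte-attracting chemokine, was at 44.9, 52.9 and 42.8 CPM after PBS and 47, 50.1 and 42.6 CPM after BSA. Ptgs2, cyclooxygenase 2, was at 268, 174 and 214 CPM after PBS and 186, 214 and 175 CPM after BSA. Il6, an inflammatory cytokine, was between 0.712 and 2.35 CPM, with an interval of -1.01 to 1.00. The NF-κB median was -0.038 to 0.052 over the fits that left out 1 of the 6 libraries, the highest without the BSA library numbered 11, and 0.033 (21 of 30 higher) without the PBS library numbered 14. Of 31 immediate early genes 20 were higher, with a median of 0.028, but the median was -0.011 (14 of 31) without the PBS library numbered 14 and -0.01 (12 of 31) with an offset for GC content. Among these AP-1 and growth factor response genes, Fos had an interval of -0.43 to 0.45, with Jun at 0.15 (SE 0.14), Myc at 0.06 (SE 0.111) and Egr1 at -0.05 (SE 0.126).

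The unfolded protein and integrated stress response held 2 genes of 40 with an unadjusted p under 0.05, beside 2.49% of all tested genes, in opposite directions. Of the 40 tested genes 22 were higher and 18 lower, with a median of 0.011, or -0.05 (13 of 40 higher) without the PBS library numbered 10. Sdf2l1, a component of an endoplasmic reticulum chaperone complex, was at 13.2, 14.9 and 11.4 CPM after PBS and 15.4, 17.7 and 15.2 CPM after BSA, 0.29 (SE 0.127, unadjusted p 0.0342). Ern1, the sensor IRE1α of unfolded protein, was at 10.8, 7.25 and 9.49 CPM after PBS and 6.67, 7.41 and 6.66 CPM after BSA, -0.41 (SE 0.157, unadjusted p 0.0183). Hspa5, the chaperone BiP, was at 883, 886 and 1100 CPM after PBS and 957, 827 and 892 CPM after BSA. Atf4, the transcription factor of the integrated stress response, and Ddit3, its target CHOP, had -0.04 (SE 0.146) and 0.08 (SE 0.228).

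Sorted by the rule for naming, which took genes with a mean of at least 1 CPM, groups apart and the same sign in all 3 same-number pairs, 12 genes higher and 12 lower after BSA had the smallest p. These values chose them and are given as a description. The 12 higher were Aldh3a1, Mettl22, Tmem37, Them6, BC022687, Mvb12a, Hsdl1, Bri3, Mir703, Slpi, Ocel1 and Eno3, with log2 fold changes from 0.26 to 0.66. Aldh3a1, an aldehyde dehydrogenase (chr11:61207537-61218421, GRCm38), was at 2.4, 2.51 and 2.16 CPM after PBS and 4.88, 2.81 and 3.54 CPM after BSA, 1.58-fold. Mettl22, a protein methyltransferase, was at 3.52, 3.16 and 2.97 CPM after PBS and 5.23, 4.37 and 4.4 CPM after BSA. Mvb12a, a subunit of the ESCRT-I sorting complex, was at 27.1, 27.7 and 17.8 CPM after PBS and 38.3, 29.1 and 33.3 CPM after BSA. Slpi, a secreted inhibitor of serine proteases, was at 12.5, 15.1 and 10.2 CPM after PBS and 17.2, 16.3 and 15.5 CPM after BSA. Eno3, the muscle form of enolase, was at 33.2, 29.7 and 18.5 CPM after PBS and 38.4, 36.5 and 33.6 CPM after BSA.

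The 12 lower were Luc7l3, Phtf1os, Ccdc88a, A230028O05Rik, Snora52, Cyp46a1, Nemf, Cep290, Ecm2, Zc3h12b, Taf1d and Snrnp48, with log2 fold changes from -0.96 to -0.29. Luc7l3, a splicing factor of the U1 particle (chr11:94287890-94321988, GRCm38), was at 122, 138 and 158 CPM after PBS and 107, 110 and 97.4 CPM after BSA. It had the smallest unadjusted p of all genes, 0.002, with an adjusted p of 0.982 in the same edgeR test. Ccdc88a, the actin-binding protein girdin, was at 86.4, 73.4 and 110 CPM after PBS and 62.7, 68.8 and 68.3 CPM after BSA. Nemf, which acts in quality control of stalled ribosomes, was at 57.5, 61.2 and 77.3 CPM after PBS and 52, 55.4 and 49.2 CPM after BSA. Cep290, a protein of the ciliary transition zone, was at 25, 22.9 and 33.7 CPM after PBS and 19.4, 21.6 and 20.5 CPM after BSA. Cyp46a1, the cholesterol 24-hydroxylase, was at 6.45, 8.06 and 6.85 CPM after PBS and 5.1, 4.56 and 5.23 CPM after BSA. Phtf1os, an antisense gene, was at 1.25, 1.54 and 1.87 CPM after PBS and 0.697, 0.691 and 0.979 CPM after BSA. Whether the counting used the strand is not given in the sources used here. It is therefore not known whether reads from the opposite strand were counted for Phtf1os. The lower genes had a median transcript length of 5062 bases and a median GC content of 41.2%, against 1564 bases and 54.5% for the higher genes and 3402 bases and 49.5% over all tested genes. Their part in these differences was not tested.

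**Figure D4:**
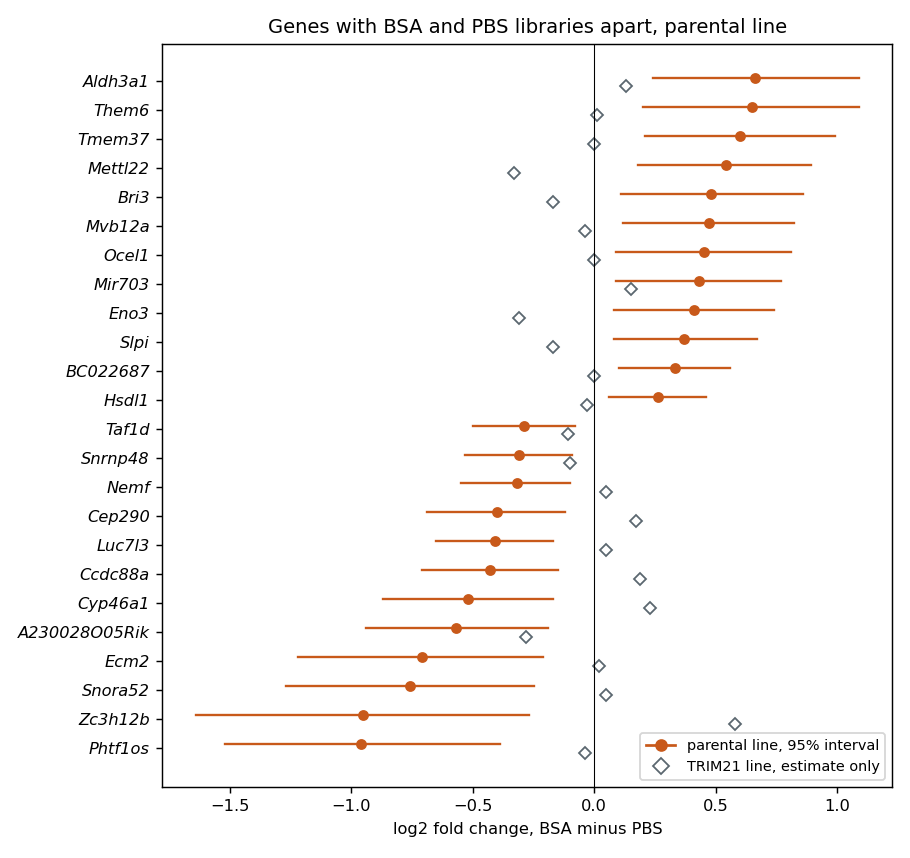
Log2 fold change, BSA against PBS, of the 12 higher and 12 lower genes: filled points with lines are the parental estimate and its 95% interval, open diamonds the estimate in the mCherry-mTRIM21 line. The diamonds share the parental sign for 5 of the 12 higher and 4 of the 12 lower genes.

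The 3 highest estimates belonged to transcripts with a wide spread between libraries. Rn45s, the ribosomal RNA precursor, was at 1180, 623 and 463 CPM after PBS and at 804, 565 and 9230 CPM after BSA. Its log2 fold change was 2.23 (SE 0.767), and -0.13 without the BSA library numbered 14. Mir6236 was at 282, 40.3 and 13.6 CPM after PBS and 167, 132 and 356 CPM after BSA, and Lars2, the mitochondrial leucyl-tRNA synthetase, at 479, 94.3 and 72.2 CPM after PBS and 296, 285 and 625 CPM after BSA. These 3 genes had the highest fold changes among genes of at least 1 CPM, and all overlapped between the groups. Mir6236 and Lars2 ranked the 6 libraries in the same order, so their estimates may not be independent. Mir6236 and Mir703 are miRNA entries of 123 and 109 bases, and the source of their reads in poly(A)-selected libraries was not tested. At the other end were Phtf1os, described above at -0.96 (SE 0.269) with groups apart, Zc3h12b and D830031N03Rik. D830031N03Rik was at 51.9, 6.04 and 19.4 CPM after PBS and 20.4, 9.39 and 10.7 CPM after BSA, -0.93 (SE 0.766). Zc3h12b was at 3.21, 1.46 and 2.44 CPM after PBS and 1.26, 1.38 and 1.02 CPM after BSA, also with groups apart. Among the most counted transcripts, Eef1a1, the translation elongation factor, was at 10900, 10900 and 11700 CPM after PBS and 12100, 11600 and 9830 CPM after BSA, and Vim, the intermediate filament vimentin, gave 0.14 (SE 0.108).

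In the pooled comparison the differences followed the base composition and length of the transcripts. The same-number pairs did not all run the same way. With genes put in 5 equal bins of transcript GC content, from the lowest to the highest bin the median log2 fold change went from -0.088 to 0.131. By same-number library pairs the 2 ends were -0.087 and 0.078 for the number 10, 0.088 and -0.145 for the number 11, and -0.247 and 0.478 for the number 14. The order was thus opposite in the pair numbered 11, and steepest in the pair numbered 14. Without the PBS library numbered 14 the ends were -0.005 and 0.021, and without both libraries numbered 14 they were 0.001 and -0.031. From the bin of the shortest to that of the longest transcripts the median went from 0.097 to -0.095. It went from 0.046 to -0.041 without the PBS library numbered 14, and from 0.046 to -0.038 without the BSA library numbered 10. With both libraries numbered 14 left out it went from 0.071 to -0.069. The ends were 0.184 and -0.211 for the pair numbered 10, -0.056 and 0.076 for the pair numbered 11, which ran the other way, and 0.121 and -0.169 for the pair numbered 14. Ribosomal protein genes are short, with a median transcript of 1192 bases, and so are respiratory chain genes, with 1386 bases. The part of length and base composition in the list values above was not tested. When an offset for GC content was added to the fit, the ribosomal protein median was 0.188, the respiratory chain median 0.145 and the proteasome median 0.119.

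**Figure D5:**
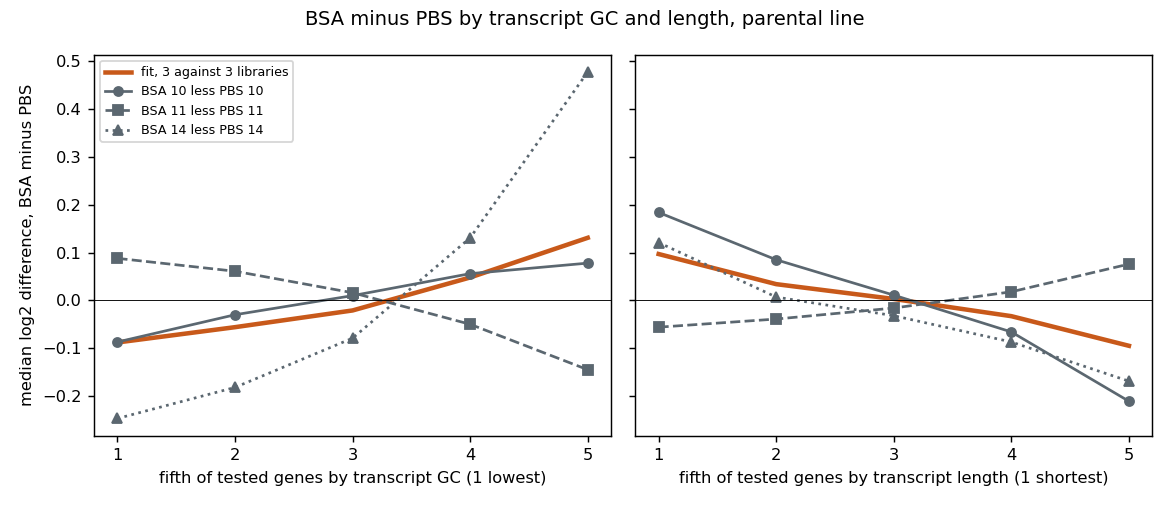
Median log2 fold change, BSA against PBS, in 5 equal bins of transcript GC content and of transcript length, for the pooled comparison and for each same-number pair. The pair numbered 14 spans -0.247 to 0.478 over GC content, and the pair numbered 11 runs the other way.

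The same contrast was made in the mCherry-mTRIM21 line, with no library in common. There too 0 of 12140 genes (0%) passed the edgeR test after Benjamini-Hochberg adjustment (smallest adjusted p 0.841), and 447 (3.68%) had an unadjusted p under 0.05, or 72 without its PBS library numbered 11. The test of the difference between the lines called 0 genes (0%; smallest adjusted p 0.651), with 790 (6.51%) at an unadjusted p under 0.05. Several lists that leaned upward in the parental line had medians below 0 in this line; the difference of a list was not tested. Among them the ribosomal protein median was -0.116, with 1 of 40 genes higher, the respiratory chain median -0.145 (1 of 40), the proteasome median -0.237 (0 of 32) and the cell cycle median -0.245 (3 of 37). In that line the PBS library numbered 11 stood apart, and not only for the proteasome and cell cycle lists. Its root mean square difference in log2 CPM was 0.439 and 0.512 from the PBS libraries numbered 10 and 14, which lay 0.293 apart. Its fibroblast marker sum was 20700 CPM, against 30400 and 34500 CPM in those libraries. All list medians of that line and the test between the lines include this library. The mean cell cycle level was -0.142, 0.405 and -0.264 in the PBS libraries of that line numbered 10, 11 and 14 and -0.173, -0.034 and -0.377 in its BSA libraries. The proteasome level was -0.084, 0.205 and -0.121 after PBS and -0.121, -0.204 and -0.36 after BSA. The ribosomal protein level was -0.061, -0.122 and 0.183 after PBS and 0.102, -0.161 and -0.295 after BSA, so the groups overlapped. In the respiratory chain list the BSA library numbered 10 of that line, at 0.017, lay within its PBS range of -0.044 to 0.033. Across genes the log2 fold changes of the 2 lines had a Pearson r of -0.287 and a Spearman rho of -0.363, given as a description, since genes are not independent. Each contrast includes a PBS library that stood apart, numbered 14 in the parental line and 11 in the other. The correlation without these libraries was not computed. Of the 12 genes higher in the parental line 5 were also higher in the mCherry-mTRIM21 line, and of the 12 lower 4 were also lower.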

How the data were processed

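The 6 libraries were compared within the 18 of the series, 3 in each of 6 groups. The deposited values are raw read counts for 24062 genes; per the submitters' processing notes, reads were handled with bcl2fastq 2.19.1.403, FastQC 0.11.5, STAR 2.5.1b, HTSeq 0.6.0 and DESeq2 1.6.3 on build mm10. The 5 lines for reads given to no gene were left out. Libraries were scaled by TMM (factors 0.977 to 1.03), low genes were removed by filterByExpr, and all 18 libraries were fitted with edgeR 4.0.16 (R 4.3.3) by its quasi-likelihood test, with Benjamini-Hochberg adjustment. CPM values are counts per 1000000 gene reads after TMM scaling. The 95% intervals use the SE from the F statistic. The procedure was tested on simulated data. The members and the 20 gene lists were chosen with earlier results of these data known. Named genes are the 12 higher and 12 lower described above, the 3 highest and 3 lowest fold changes, the most counted list members, list members with an unadjusted p under 0.05, all tested albumin-handling genes, Trim21 and the 3 most counted genes; other genes were chosen as known members of their list after values were seen. Gene positions and lengths were matched by symbol to a GENCODE annotation of GRCm38 (22750 directly, 935 through another symbol, 377 unmatched). Alternatives covered scaling, filtering, limma-voom, DESeq2 1.42.0, the samples fitted, a GC offset (chosen after seeing the data), the title number as a block, and leaving out each library.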

Additional observations from a re-analysis of the deposited data

Results flagged for a closer look

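For 2 gene lists every BSA library of the parental line lay above its PBS mean while every BSA library of the mCherry-mTRIM21 line lay below its own. For the cytosolic chaperones the mean log2 level less the PBS mean was 0.031 to 0.129 in the parental line and -0.194 to -0.130 in the other line, a difference of 0.252. Without the parental PBS library numbered 14 the parental values were -0.021 to 0.077, so they no longer lay on 1 side. For the oxidative stress and metallothionein genes the values were 0.103 to 0.189 and -0.181 to -0.013, a difference of 0.247. Without the PBS library numbered 11 of the mCherry-mTRIM21 line the second range was -0.158 to 0.010. The difference between the lines was not tested for these lists.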

How the results depend on the processing

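No gene had an adjusted p under 0.05 in any alternative for the parental line, the mCherry-mTRIM21 line or the difference between them. For the 74 named genes, 1169 of 1257 values kept their sign and 88 did not, and none crossed the threshold. The count of genes with an unadjusted p under 0.05 moved: in the parental line it was 157 when only the groups compared were fitted and 93 without both libraries numbered 14 (chosen after seeing the data). In the other line it was 96 with only the groups compared and 708 with a GC-content offset, and for the difference between lines 394 with only the groups compared. Leaving out a library gave 80 to 1178 genes in the parental line (80 without the PBS library numbered 14, 1178 without the PBS library numbered 11, 465 without the PBS library numbered 10, 174 without the BSA library numbered 10), 72 to 1699 in the other line and 290 to 1667 for the difference. The cause of these moves was not tested. Depth limits genes under 1 CPM most.

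Title numbers were checked as pairs: same-numbered libraries of the 2 groups deviated with correlations of -0.0307 to 0.139 (mean 0.0741), against -0.0365 for other pairs, and 4 of 6 libraries correlated best with their own number. The same-number mean was thus the higher, and these values do not show that the numbers are unrelated to the libraries. The labels do not say what the numbers mark. The reported fit, as planned, leaves them out, and the fit with the number as a block is an alternative. With the number as a replicate block the unadjusted counts were 491, 1108 and 1497 (parental line, other line, difference), and with a GC-content offset as well 575, 1747 and 2130; adjusted calls stayed at 0.

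Log2 fold changes that changed sign were, with the GC-content offset: B2m 0.05, Cav1 0.04, Cav2 0.06, Ccng1 0.06, Cltc 0.02, Dnm2 -0.12, Gnas -0.11, Top2a 0.01; with the offset and the replicate block: B2m 0.05, Cav1 0.04, Cav2 0.06, Ccng1 0.07, Cltc 0.03, Dnm2 -0.12, Gnas -0.1; without both libraries numbered 14: B2m 0.11, Calr 0.12, Cav1 0.04, Cav2 0.02, Ccng1 0.02, Cltc 0.01, Dnm2 -0.12, Gnas -0.04, Ifi204 0.02, Mir6236 -0.1, Rab7 0, Rn45s -0.39, Sparc 0.01, Top2a 0.03, Trim21 0.02; with only the 9 parental libraries: Calr 0.01. Eef1a1, at 0.0 in the reported fit, was at 0.0 with the block, limma-voom, a stricter filter and only the groups compared. Over the fits without 1 library, genes that changed sign ranged as follows: Anxa2 -0.05 to 0.15, B2m -0.14 to 0.07, Calr -0.12 to 0.06, Cav1 -0.12 to 0.11, Cav2 -0.15 to 0.07, Ccng1 -0.18 to 0.14, Cltc -0.23 to 0.06, Csf1 -0.11 to 0.06, Ctsl -0.09 to 0.14, Cubn -0.06 to 0.15, D830031N03Rik -1.4 to 0.11, Dnm2 -0.05 to 0.08, Eef1a1 -0.05 to 0.09, Fosl2 -0.14 to 0.05, Gnas -0.05 to 0.16, Hnrnpc -0.03 to 0.08, Hsp90ab1 -0.02 to 0.1, Lox -0.33 to 0.1, Lrp1 -0.22 to 0.19, Lrp2 -0.41 to 0.13, Rab11a -0.05 to 0.1, Rab5a -0.19 to 0.03, Rab7 -0.11 to 0, Rn45s -0.13 to 2.75, Scd2 -0.02 to 0.15, Sparc -0.13 to 0.06, Top2a -0.18 to 0.01, Trim21 -0.18 to 0.08.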

Other observations

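Lists on growth, metabolism and the matrix had no gene past the edgeR test, and their medians changed sign when 1 library was left out. Of 37 tested cell cycle genes 27 were higher after BSA, with a median log2 fold change of 0.06, or -0.032 with 7 of 37 higher without the PBS library numbered 14 and -0.055 with 14 of 37 without the BSA library numbered 11. Top2a, the topoisomerase of dividing cells, was at 464, 466 and 496 CPM after PBS and 414, 533 and 417 CPM after BSA. Of 31 sterol and fatty acid synthesis genes 18 were higher (median 0.011), of 28 glycolysis and hypoxia genes 15 (0.012), of 32 extracellular matrix genes 15 (-0.019), of 30 autophagy genes 14 (-0.007) and of 19 p53 targets 8 (-0.03). Over the fits that left out 1 of the 6 libraries the medians were -0.04 (without the PBS library numbered 10) to 0.101 (without the PBS library numbered 14) for sterol synthesis, -0.035 (BSA library numbered 10) to 0.113 (BSA library numbered 11) for glycolysis, and -0.124 (BSA library numbered 14) to 0.056 (BSA library numbered 11) for the matrix. They were -0.029 (BSA library numbered 14) to 0.051 (PBS library numbered 14) for autophagy and -0.021 (BSA library numbered 14) to 0.045 (PBS library numbered 10) for p53 targets.

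Of 28 contractile and YAP target genes 14 were higher, with a median of 0.001, which was -0.054 without the BSA library numbered 11 and 0.07 without the BSA library numbered 10. Inhba, a subunit of activin, was at 16.9, 9.8 and 12.1 CPM after PBS and 8.28, 10.8 and 8.66 CPM after BSA, -0.48 (SE 0.222, unadjusted p 0.0434). Actb, cytoplasmic actin, was at 4110, 3890 and 2840 CPM after PBS and 4310, 4950 and 4470 CPM after BSA, 0.34 (SE 0.168). The matrix gene Col1a1 ranged from 2580 to 3400 CPM after PBS and from 2710 to 5020 CPM after BSA.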
